A study of Mus musculus with 9 samples.

Results

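Antisense RNAs are transcripts read from the strand opposite a known gene, and 195 of them were expressed in the mouse cortex at a mean of at least 1 FPKM (a level per length of gene, scaled to the size of the library) over 9 libraries. They were taken from the 2826 genes that the deposited table classes as antisense, of 54532 genes in all, and they were chosen by one measured value, the mean level over all 9 libraries, which is described here and not tested. Left out were 37 antisense genes in an interval of chromosome 8 from about 36 to 78 Mb, and Tsix. Of the 2788 antisense genes that remained, 2593 were under 1 FPKM and 677 had 0 reads in every library.

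The libraries came from the brain cortex of adult male mice of 3 inbred strains, 8 to 12 weeks old, with 3 mice per strain: C57BL6/J (B6), C3H/HeJ (C3H) and WSB/EiJ (WSB), the last a strain derived from wild mice. No treatment or engineered allele is given for any group. The study set the strains side by side to find genes whose cortical expression differs between strains that differ in the size of an ischemic infarct. The comparisons below ask which antisense RNAs differed between 2 strains, and whether the coding gene on the other strand differed with them.

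An antisense RNA can start next to the promoter of a coding gene and run away from it or into it (head to head), run into the far end of a coding gene (tail to tail), lie wholly inside one, or span it. Many such RNAs are short-lived and kept in the nucleus, where the RNA exosome degrades them, and several, such as those of imprinted gene clusters, are known to act on the gene they overlap. Many others are by-products of a promoter that is read in both directions, with no known role.

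The members were spread over 19 chromosomes and were 151 to 9734 bases long, with a median of 974. A protein-coding gene on the opposite strand overlapped 177 of them, and the one with the longest overlap is called the partner here (174 distinct genes). Of the members, 68 lay inside the partner, 58 were head to head with it, 47 tail to tail and 4 spanned it. The other 18 overlapped no coding gene, but 15 of these started within 1000 bases of the start of a coding gene on the other strand. Over all members, 81 started within 1000 bases of such a start and 24 within 100 bases.

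Sequence was available upstream of some of the members that differed between strains. The windows below (RefSeq, GRCm38.p6) run from 250 bases before to 50 bases after the annotated start of 5 of them, on the strand of the antisense RNA, with each CG in capitals. All 5 RNAs lie head to head with a coding gene, while their windows differ widely in CG count. A330009N23Rik and 1700052K11Rik also differed between strains and lie head to head, but their windows, with 8 and 29 CG, are not shown. None of the 5 windows overlaps an exon of a coding transcript.

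Zfp335os, chr2:164911183-164911482, plus strand: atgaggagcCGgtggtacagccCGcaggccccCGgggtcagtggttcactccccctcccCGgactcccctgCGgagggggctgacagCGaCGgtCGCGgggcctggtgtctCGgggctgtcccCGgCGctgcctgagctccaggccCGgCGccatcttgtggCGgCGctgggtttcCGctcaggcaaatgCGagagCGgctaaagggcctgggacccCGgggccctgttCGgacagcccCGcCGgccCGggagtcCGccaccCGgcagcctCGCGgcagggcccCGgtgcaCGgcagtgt
Gm10516, chr1:192136648-192136947, plus strand: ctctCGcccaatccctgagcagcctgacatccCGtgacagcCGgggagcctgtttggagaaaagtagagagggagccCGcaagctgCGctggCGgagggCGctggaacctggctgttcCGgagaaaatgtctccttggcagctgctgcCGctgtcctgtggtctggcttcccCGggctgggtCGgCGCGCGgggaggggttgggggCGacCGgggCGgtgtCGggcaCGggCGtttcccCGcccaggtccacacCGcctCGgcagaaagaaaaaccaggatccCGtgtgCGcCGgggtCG
Gm26782, chr14:50870046-50870345, plus strand: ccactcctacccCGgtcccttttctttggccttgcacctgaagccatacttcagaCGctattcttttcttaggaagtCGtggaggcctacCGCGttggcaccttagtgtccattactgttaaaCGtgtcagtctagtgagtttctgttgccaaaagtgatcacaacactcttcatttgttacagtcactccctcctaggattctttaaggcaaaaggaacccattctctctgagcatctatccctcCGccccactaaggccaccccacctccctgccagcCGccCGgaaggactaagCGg
Gm29443, chr7:16613574-16613873, plus strand: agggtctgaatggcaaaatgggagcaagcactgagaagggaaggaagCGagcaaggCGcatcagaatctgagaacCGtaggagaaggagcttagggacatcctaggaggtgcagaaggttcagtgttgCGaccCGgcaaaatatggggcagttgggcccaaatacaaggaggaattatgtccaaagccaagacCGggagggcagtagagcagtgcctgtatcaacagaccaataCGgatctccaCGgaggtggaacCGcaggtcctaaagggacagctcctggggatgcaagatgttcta
AI115009, chr3:152666663-152666962, plus strand: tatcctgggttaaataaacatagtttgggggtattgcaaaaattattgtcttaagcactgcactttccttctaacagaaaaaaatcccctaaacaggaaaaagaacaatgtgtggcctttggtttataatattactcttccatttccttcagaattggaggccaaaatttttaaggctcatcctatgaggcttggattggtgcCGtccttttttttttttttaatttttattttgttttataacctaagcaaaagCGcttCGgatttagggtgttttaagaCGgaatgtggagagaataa

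The window of Zfp335os holds 30 CG and that of Gm10516 holds 27, whereas those of Gm26782, Gm29443 and AI115009 hold 10, 9 and 4. The median over all 32851 RefSeq windows of this length was 7, and over the 52 members with a RefSeq start within 100 bases of the start in the deposited table it was 16. The letters TATAAA, searched on both strands, are in 13.6% of all windows and, of the 5 shown, in that of AI115009. CCAAT is in 37.4% of all windows and in those of Gm10516, Gm29443 and AI115009, and GGGCGG is in 35.7% of all and in those of Gm10516 and Gm26782. These matches are descriptions of letters, not of bound sites.

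Between 16317439 and 21562429 reads per library fell on genes, the WSB libraries being the shallowest. The members were low, with a median of 39 reads per library, and 14 of them had a median under 10. C3H replicate 2 stood apart from the other C3H libraries: leaving it out raised the genes called between C3H and B6 over the whole table from 956 to 2301, and between WSB and C3H from 1182 to 2002. The C3H libraries also differed by base composition, with a Spearman correlation across all genes tested of 0.34 between the C3H minus B6 log2 fold change and GC content (0.20 across the members, genes not being independent replicates). Summed markers of cortical excitatory neurons were at 585 to 884 FPKM in every library, and no list of markers had a member at 0 everywhere. Other tissue varied: in B6, C3H and WSB in that order, choroid plexus markers summed to 64.4 to 762, 92.1 to 655 and 467 to 602 FPKM, oligodendrocyte markers to 678 to 855, 633 to 857 and 376 to 540, and blood markers to 217 to 254, 632 to 1010 and 249 to 329. Their part in the strain differences below was not tested, and in bulk tissue fewer cells of a type cannot be told apart from less RNA per cell.

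How the reads were counted shapes what an antisense level can mean here. Whether counting used the strand of the reads is not given in the sources used here. Of the antisense genes, 31 have exons that lie wholly inside exons of a coding partner at 5.71 to 75.8 FPKM, and all 31 had 0 reads in all 9 libraries. Of the 76 whose exon bases are all shared with a gene of any kind, 75 had 0 reads and the other had 1 read over all libraries. Reads on shared exon bases thus all but failed to reach these antisense genes, and the level of a member rests mainly on the exon bases it does not share. The median member shared 10.5% of its exon bases, 62 shared none, 11 shared at least 50%, and the highest share was 80.2%. Reads from unspliced RNA of the partner cannot be told apart from antisense RNA. The study states that the mouse reference genome comes from B6. Whether reads of C3H and WSB mapped to the members as well as those of B6 was not tested.

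Levels were low throughout. The median member averaged 1.84 FPKM over the 9 libraries, 89 members were over 2 FPKM and 24 over 5 FPKM. The highest was Gm17201, inside the ankyrin repeat gene Ankrd52, at 14.3 ± 1.85 FPKM in B6, 19.6 ± 3.34 in C3H and 16.9 ± 3.95 in WSB (mean ± SD, n = 3 mice, as for all values given this way). Next came Gm13375, 4933431E20Rik and 2810001G20Rik, the last starting 16 bases from the start of Cox10, a gene for heme synthesis, and its 3 strain means were 10.6, 9.52 and 11.7 FPKM. Tug1, a long noncoding RNA of the nucleus and the longest member, was at 9.56 ± 0.57 FPKM in B6, 6.44 ± 1.45 in C3H and 9.15 ± 1.25 in WSB. The C3H and B6 mice did not overlap, yet Tug1 did not pass the test (log2 fold change C3H minus B6 −0.58, limma adjusted p = 0.080). The spread between mice was wide, with a median coefficient of variation over members of 20.8% in B6, 18.2% in C3H and 20.9% in WSB.

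The partner was usually the more abundant transcript. Per length, the coding gene was higher than the antisense RNA in 140 of 177 pairs, and the median partner averaged 6.81 FPKM. Over the 9 libraries, the correlation of a member with its partner had a median of 0.13 over the 177 pairs, with 106 above 0 and quartiles of −0.18 and 0.46. The points of each pair share their library and its depth, so these values only describe the set. The 3 pairs with the highest correlation were Gm14291 with Ptgis (0.97), A830036E02Rik with Krt12 (0.96) and Gm15879 with Dnase1 (0.93), and the lowest was Zfp652os with Zfp652 (−0.96).

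At the threshold, Gm16861, Gm37850 and Gm26782 were just inside the mean of 1 FPKM, and Gm43604, Ict1os and A730056A06Rik just outside. Without the level of 1 strain, 16 members would have been under 1 FPKM for B6, 15 for C3H and 20 for WSB, 38 members in all. Such a member entered through the strain where it was high, and 12 of the 38 are among the members called below: Gm13601, Gm40578, AW495222, Gm26782, AI115009, Gm3235, Gm29443, Gm15494, Gm48796, Gm33524, Gm37850 and Gm11192. For these the direction is partly fixed by how they were chosen.

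A member was called when its limma adjusted p on log2(FPKM + 0.1) was under 0.05, with Benjamini-Hochberg adjustment over all genes tested, and every log2 fold change below is on that scale, which understates the change of low genes. Between WSB and B6, 23 of 195 antisense RNAs were called, 12 higher and 11 lower in WSB, against a background of 5.90% of 20746 genes. Between C3H and B6, 17 were called, 7 higher and 10 lower in C3H, against 4.64% of 20602 genes. Between WSB and C3H, 22 were called, 15 higher and 7 lower in WSB, against 5.74% of 20607 genes. As shares of the members these are 11.8%, 8.72% and 11.3%. Among all genes that averaged 1 FPKM or more, 6.55%, 5.33% and 6.64% were called.

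The median log2 fold change of the members was 0.01, −0.03 and 0.05 in the 3 comparisons, beside 0.00, −0.00 and 0.01 over all genes, all close to 0 throughout. The 3 mice of each strain did not overlap for 52 members between WSB and B6, where 26.0% of all genes did not overlap. They did not overlap for 58 members between C3H and B6 and for 61 between WSB and C3H, with backgrounds of 28.9% and 28.6%. As shares of the members these were 26.7%, 29.7% and 31.3%, near the background.

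The counts of calls depended on single mice, as they did over all genes, of which the percentage called in the same fit is given in parentheses. Between WSB and B6, 13 members were called without B6 replicate 2 (3.13%) or without B6 replicate 3 (3.39%), and 15 without WSB replicate 3 (3.92%). The split of higher and lower calls was 8 and 9 without WSB replicate 2 and 7 and 8 without WSB replicate 3, in place of 12 and 11. Between C3H and B6, 9 were called without C3H replicate 1 (2.45%) and 33, 9 higher and 24 lower, without C3H replicate 2 (11.2%). Between WSB and C3H, 6 were called without C3H replicate 1 (2.29%), 10 without WSB replicate 1 (2.76%), 14 without C3H replicate 3 (2.55%) and 30 without C3H replicate 2 (9.71%). The excess of higher calls in this comparison, 15 against 7, was not kept without WSB replicate 3, where 7 were higher and 8 lower. Once GC trends were removed library by library, 22 members were called between WSB and B6, 23 between WSB and C3H, and 24 between C3H and B6, 6 higher and 18 lower in place of 7 and 10.

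**Figure D1:**
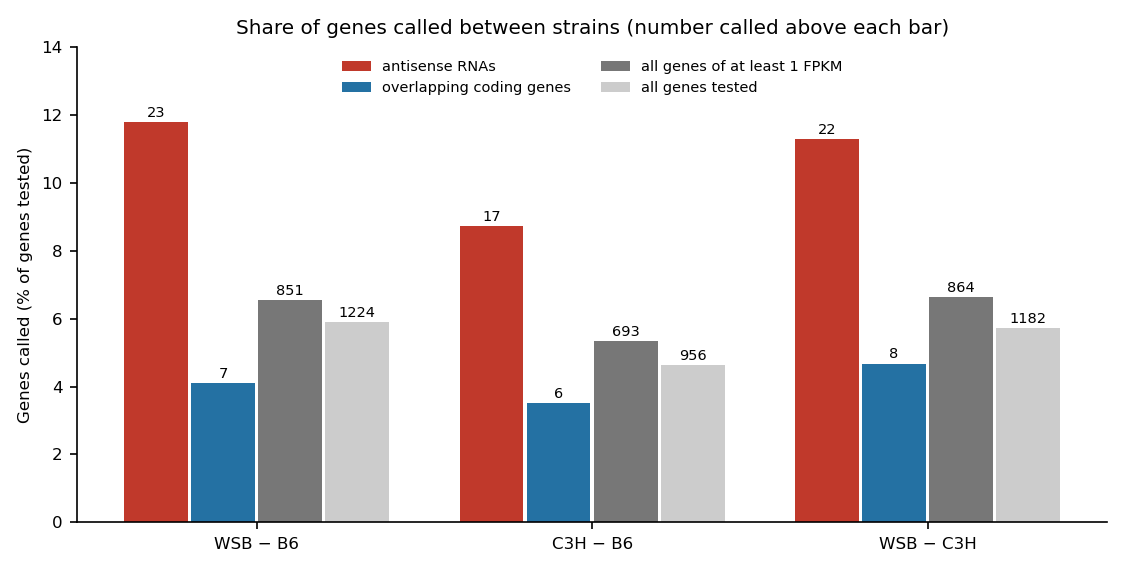
Bars give the percentage of genes called in each pair of strains for the antisense RNAs, their overlapping coding genes, all genes that averaged 1 FPKM or more and all genes tested, with the number called above each bar. The antisense RNAs reached 11.8%, 8.72% and 11.3%, and their coding genes 4.09%, 3.51% and 4.68%.

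The members that differed are described by the strain that stood apart. The 3 comparisons share mice, so a call in 2 of them is not an independent repeat. The first group was set apart in WSB. The clearest was 1500015A07Rik (chr18:61726390-61735917, GRCm38, plus strand), which starts 59 bases from the start of Grpel2, a mitochondrial co-chaperone gene, and runs tail to tail into Afap1l1, which encodes a protein that binds actin filaments. It was at 2.16, 1.92 and 1.98 FPKM in the B6 mice, 1.80, 1.75 and 1.80 in the C3H mice, and 17.7, 16.2 and 17.4 in the WSB mice. Every WSB mouse was far above every mouse of the other strains, and the B6 and C3H mice lay close together. The log2 fold change was 3.02 (SE 0.09, limma adjusted p = 2.38e-06) for WSB minus B6 and 3.19 (SE 0.08, adjusted p = 2.23e-06) for WSB minus C3H. Neither neighbour followed: Grpel2 was at 6.40 ± 0.24 FPKM in B6 and 5.92 ± 0.66 in WSB, and Afap1l1 at 8.02 ± 1.12 and 7.19 ± 1.89. Neither passed the test, with log2 fold changes of −0.11 (SE 0.10) and −0.18 (SE 0.20) for WSB minus B6.

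Gm14291 lies inside Ptgis, the gene for prostacyclin synthase, and shares no exon base with it. It was at 2.29, 1.29 and 1.23 FPKM in B6, 2.0, 1.67 and 2.5 in C3H, and 10.2, 7.18 and 9.67 in WSB, so the WSB mice did not overlap the others. Its log2 fold change was 2.46 (SE 0.25, limma adjusted p = 0.0016) for WSB minus B6 and 2.08 (SE 0.19, adjusted p = 0.00108) for WSB minus C3H. Ptgis rose too, from 1.69 ± 0.22 FPKM in B6 and 2.25 ± 0.04 in C3H to 4.22 ± 0.40 in WSB (log2 fold change 1.27, SE 0.14, limma adjusted p = 0.00224 for WSB minus B6). The antisense RNA rose by more than the coding gene: the difference in log2 ratio was 1.19 (SE 0.24, adjusted p = 0.0244).

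AI115009 and Gm3235 were lower in WSB. AI115009 is head to head with Ak5, an adenylate kinase of the brain, in the sequence with the fewest CG of those printed above. It was at 1.87, 1.18 and 1.87 FPKM in B6, 1.77, 1.28 and 1.39 in C3H and 0.29, 0.28 and 0.24 in WSB, with no overlap. On the log2 scale the fold change was −2.21 (SE 0.24, limma adjusted p = 0.00241) for WSB minus B6 and −2.09 (SE 0.22, adjusted p = 0.0021) for WSB minus C3H. Ak5 itself was abundant and overlapped between strains, at 56.7 ± 10.4 FPKM in B6, 63.6 ± 9.58 in C3H and 56.9 ± 10.1 in WSB. Gm3235, inside an intron of Fto, an RNA demethylase gene, was at 1.29 ± 0.35 FPKM in B6, 1.48 ± 0.14 in C3H and 0.28 ± 0.13 in WSB. Its log2 fold change for WSB minus B6 was −1.90 (limma adjusted p = 0.0185), a call lost without B6 replicate 2, B6 replicate 3 or WSB replicate 1, where adjusted p reached 0.088. Fto was at 13.1 ± 0.71 FPKM in B6 and 13.6 ± 0.12 in WSB.

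Smaller differences set WSB apart at 4 more members. E130307A14Rik, which starts 111 bases from Rev3l, the catalytic subunit of a DNA polymerase for damaged templates, was at 2.97 ± 0.04 FPKM in B6, 3.01 ± 0.11 in C3H and 1.58 ± 0.24 in WSB. Gm13375, 173 bases from the start of Arhgap21, was at 10.2 ± 0.56, 11.2 ± 1.10 and 16.1 ± 2.0 FPKM in the same order. Gm26982, which overlaps the end of the ghrelin gene Ghrl by 3 bases, was at 4.01 ± 0.50, 4.82 ± 0.69 and 2.64 ± 0.20 FPKM. In each of these the WSB mice did not overlap those of B6 or C3H. All 3 were called against both strains, with log2 fold changes for WSB minus B6 of −0.88, 0.66 and −0.58, but not without every mouse. E130307A14Rik lost its call against B6 without B6 replicate 2 or 3 and against C3H without C3H replicate 1 or 3 or WSB replicate 1 (adjusted p up to 0.0669). Gm13375 lost its call against B6 without B6 replicate 3 and with the GC trend removed. With a mouse left out, it kept that against C3H only without WSB replicate 3 (up to 0.158), and it lost that call at a pseudocount of 0.01 or 1. Gm26982 kept its call against B6 only without B6 replicate 1 and lost that against C3H without C3H replicate 1 or WSB replicate 1 (up to 0.144).

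The other was Dlx6os1, also called Evf2, a long noncoding RNA of the forebrain that spans the homeobox gene Dlx6 and is known from developing GABAergic interneurons. It was at 4.01, 2.90 and 2.51 FPKM in B6, 1.80, 2.25 and 2.30 in C3H, and 6.23, 5.44 and 5.34 in WSB. All WSB mice were above and all C3H mice below the B6 mice. Its log2 fold change was 1.38 (SE 0.13, limma adjusted p = 0.00149) for WSB minus C3H and held without each mouse in turn (adjusted p up to 0.0108). For WSB minus B6 it was 0.86 (SE 0.17, adjusted p = 0.0317), passing in 1 of 6 fits with a mouse left out, the one without B6 replicate 1, with adjusted p up to 0.115 in the others. Dlx6 overlapped between strains, at 4.41 ± 2.05, 4.82 ± 1.49 and 4.60 ± 1.09 FPKM in B6, C3H and WSB, as did Dlx5, at 3.22 ± 1.23, 2.76 ± 1.02 and 3.0 ± 1.0.

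Dlx1as, the antisense RNA at the Dlx1 locus, had its strain means in the same order, though the B6 and C3H mice overlapped. It was at 1.92, 1.40 and 1.5 FPKM in B6, 0.99, 1.33 and 1.42 in C3H and 3.14, 2.16 and 2.42 in WSB. It was called between WSB and C3H (log2 fold change 0.99, SE 0.20, limma adjusted p = 0.033), in 1 of 6 fits with a mouse left out, the one without C3H replicate 2, with adjusted p up to 0.108 in the others. Dlx1 was called in the same comparison, at 6.05 ± 0.15 FPKM in C3H and 8.49 ± 0.78 in WSB (log2 fold change 0.48, adjusted p = 0.0309). By length of overlap the partner of Dlx1as was Metap1d, a mitochondrial aminopeptidase gene, at 3.84 ± 0.15 FPKM in B6, 1.82 ± 0.21 in C3H and 4.37 ± 0.38 in WSB, and it was called in both comparisons with C3H. Summed interneuron markers ranged from 623 to 759 FPKM in WSB, from 579 to 670 in C3H and from 582 to 605 in B6, and none of the 6 was called. Summed markers of the striatum, where Dlx genes are also expressed, ranged from 138 to 351, 172 to 465 and 190 to 773 FPKM in the same order, and none of the 8 was called. The part of either cell type in these levels was not tested.

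**Figure D2:**
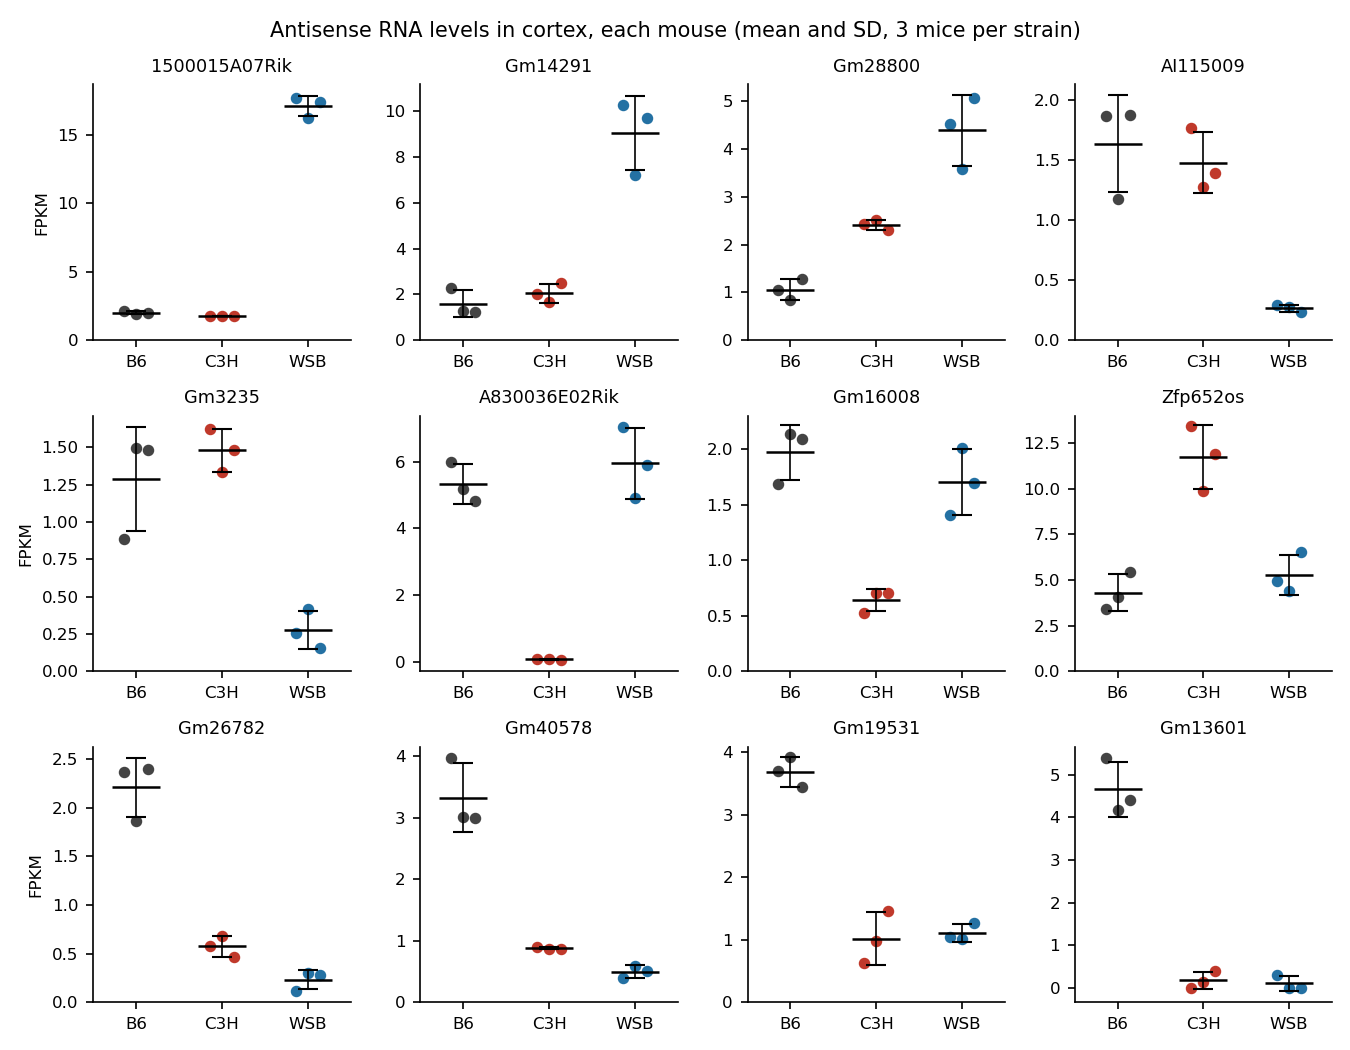
Each panel shows the FPKM of 1 antisense RNA in every mouse of B6, C3H and WSB, with horizontal lines for the mean and bars for the SD of 3 mice. WSB stands apart in the first 5 panels apart from Gm28800, where the 3 strains are stepped at means of 1.05, 2.41 and 4.38 FPKM, C3H stands apart in the next 3, and B6 in the last 4.

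C3H stood apart at A830036E02Rik (chr11:99416956-99425497, GRCm38, plus strand), which is head to head with Krt12, a keratin known from the corneal epithelium. It was at 5.99, 5.17 and 4.83 FPKM in B6, 0.0801, 0.0855 and 0.0683 in C3H, and 7.03, 4.92 and 5.88 in WSB. The C3H mice had 8 to 10 reads each, where no other mouse had fewer than 514. This gave a log2 fold change of −4.93 (SE 0.18, limma adjusted p = 7.22e-06) for C3H minus B6 and 5.07 (SE 0.20, adjusted p = 1.71e-05) for WSB minus C3H, and both calls held without each mouse in turn. Krt12 was at 5.70, 5.80 and 6.08 FPKM in B6, 0.99, 1.59 and 0.56 in C3H, and 6.36, 3.77 and 5.76 in WSB. It was called with a log2 fold change of −2.49 (SE 0.31, adjusted p = 0.00448) for C3H minus B6, so both genes were low in C3H. Which strand the reads came from was not tested. The antisense RNA fell by more, the difference in log2 ratio being −2.44 (SE 0.36, adjusted p = 0.0109). The pair shares 1007 of the 6039 exon bases of A830036E02Rik.

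Gm16008, which spans Tnfrsf18, the gene of GITR, a receptor protein found on T cells, also moved with its partner. It was at 1.69, 2.13 and 2.09 FPKM in B6, 0.53, 0.70 and 0.70 in C3H and 1.41, 2.01 and 1.70 in WSB, and the C3H mice did not overlap the others. The log2 fold change was −1.48 (SE 0.18, limma adjusted p = 0.0046) for C3H minus B6. Tnfrsf18 was at 1.16 ± 0.07, 0.48 ± 0.05 and 1.16 ± 0.27 FPKM in B6, C3H and WSB. Its log2 fold change was −1.13 (SE 0.19, adjusted p = 0.0162) for C3H minus B6, and of the 6 fits with a mouse left out only that without C3H replicate 2 kept the call (adjusted p up to 0.0695). The difference in log2 ratio was −0.35 (SE 0.27) and did not pass. Gm16008 is called for WSB minus C3H as well, at 1.27 (adjusted p = 0.0138), a call lost without C3H replicate 1, WSB replicate 2 or WSB replicate 3, with adjusted p up to 0.0576.

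Zfp652os is the antisense RNA of Zfp652, a zinc finger transcription factor gene, and starts 81 bases from its start, the pair overlapping by 82 bases. It was at 3.43, 4.06 and 5.42 FPKM in B6, 13.4, 9.90 and 11.9 in C3H and 4.93, 4.41 and 6.52 in WSB. The C3H mice were above all others, with a log2 fold change of 1.44 (SE 0.18, limma adjusted p = 0.00488) for C3H minus B6 and −1.14 (SE 0.17, adjusted p = 0.0104) for WSB minus C3H, the second lost without C3H replicate 1 (adjusted p = 0.0566). Zfp652 was at 3.13, 2.98 and 2.95 FPKM in B6, 2.12, 2.26 and 2.04 in C3H and 2.94, 2.73 and 2.5 in WSB. It was lowest where the antisense RNA was highest, but its log2 fold change of −0.48 (SE 0.11, adjusted p = 0.055) for C3H minus B6 did not pass. The log2 ratio of the pair differed by 1.92 (SE 0.24, adjusted p = 0.00566).

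Gm29443 had 0, 0 and 4 reads in the C3H mice and 8 to 25 in the others, and starts 1169 bases from the start of Arhgap35. Its levels were 1.33 ± 0.47 FPKM in B6, 0.13 ± 0.22 in C3H and 1.77 ± 0.85 in WSB. The log2 fold change for C3H minus B6 was −3.03 (SE 0.64, limma adjusted p = 0.0427). The call held only in the fit without C3H replicate 3, the mouse with the 4 reads, among the 6 with a mouse left out, where adjusted p reached 0.149. Arhgap35 was at 23.0 ± 2.12, 26.8 ± 1.15 and 23.8 ± 0.20 FPKM in the 3 strains and was not called.

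B6 stood apart at 5 members called lower in both other strains. Of them, 4 would be under 1 FPKM without B6, namely Gm13601, Gm40578, AW495222 and Gm26782. Their being high in B6 is thus partly what chose them. How well C3H and WSB reads mapped to these 5 members was not tested. Gm13601, inside the muscle gene Xirp2, had 39, 34 and 38 reads in B6, 0, 1 and 3 in C3H and 2, 0 and 0 in WSB. Over the strain, B6 had 111 reads against 2 in WSB, a depth-adjusted ratio of 48.8 with a 95% interval of 13.2 to 408 that covers counting error only. Xirp2 was at most at 0.039 FPKM in any mouse and was not tested. Gm26782 is head to head with Tep1, a telomerase-associated protein gene and starts 236 bases from its start. It was at 2.37, 1.86 and 2.39 FPKM in B6, 0.58, 0.68 and 0.47 in C3H and 0.12, 0.30 and 0.28 in WSB, with no overlap between any pair of strains. On the log2 scale the fold change was −2.84 (SE 0.28, limma adjusted p = 0.0015) for WSB minus B6 and −1.78 (SE 0.19, adjusted p = 0.00239) for C3H minus B6. Tep1 was at 0.44 ± 0.04, 0.51 ± 0.06 and 0.66 ± 0.10 FPKM in B6, C3H and WSB and was not called, and the log2 ratio differed by −3.33 (SE 0.31, adjusted p = 0.000241) for WSB minus B6.

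Gm40578, tail to tail with the cytokine-induced gene Tnfaip2, was at 3.33 ± 0.56 FPKM in B6, 0.88 ± 0.02 in C3H and 0.50 ± 0.10 in WSB. Its log2 fold change was −2.51 (limma adjusted p = 0.000421) for WSB minus B6 and −1.79 (adjusted p = 0.000779) for C3H minus B6, and Tnfaip2, at 0.395, 0.245 and 0.22 FPKM, was not called. Gm19531, inside Gnb5, a G protein beta subunit gene of the nervous system, was at 3.69, 3.92 and 3.44 FPKM in B6, 0.62, 0.97 and 1.46 in C3H and 1.05, 1.01 and 1.27 in WSB. Its log2 fold changes were −1.65 (adjusted p = 0.000568) for WSB minus B6 and −1.82 (adjusted p = 0.00924) for C3H minus B6, while Gnb5 was at 55.2, 56.6 and 55.3 FPKM. AW495222, inside the dimethylglycine dehydrogenase gene Dmgdh, was at 2.32 ± 0.24, 0.91 ± 0.32 and 0.39 ± 0.30 FPKM in B6, C3H and WSB. Its calls each held in 2 of 6 fits with a mouse left out, with adjusted p up to 0.0757 for WSB minus B6, lost without any B6 mouse or WSB replicate 1, and up to 0.121 for C3H minus B6, lost without any B6 mouse or C3H replicate 1.

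At 4 members B6 was called lower than both other strains. Gm28800, inside Zranb3, a gene for replication fork repair, was at 1.05, 0.84 and 1.28 FPKM in B6, 2.42, 2.51 and 2.30 in C3H and 4.5, 3.58 and 5.05 in WSB. No 2 strains overlapped, and the log2 fold changes were 1.96 (SE 0.19, limma adjusted p = 0.00137) for WSB minus B6, 1.14 (adjusted p = 0.0116) for C3H minus B6 and 0.82 (adjusted p = 0.0201) for WSB minus C3H. The second was lost without C3H replicate 1 (adjusted p = 0.0599), and the last without C3H replicate 1 or 3 or WSB replicate 1 or 3 (up to 0.0827). Zranb3 was at 0.87 ± 0.05, 1.15 ± 0.16 and 1.24 ± 0.20 FPKM in B6, C3H and WSB and was not called. Gm30025, a single exon inside Dcaf5, was at 3.47 ± 0.98, 9.07 ± 0.63 and 7.36 ± 1.68 FPKM, with a log2 fold change of 1.40 (SE 0.19, adjusted p = 0.00683) for C3H minus B6. 1700052K11Rik, head to head with the kinase gene Tlk2 and 2626 bases from its start, was at 1.76 ± 0.15, 2.97 ± 0.19 and 2.84 ± 0.29 FPKM, with log2 fold changes of 0.66 (limma adjusted p = 0.0315) for WSB minus B6 and 0.72 (adjusted p = 0.0192) for C3H minus B6. The first held only without WSB replicate 1 and the second only without B6 replicate 3 or C3H replicate 2, with adjusted p up to 0.117. The call of Gm30025 for WSB minus B6, at 1.07 (adjusted p = 0.0448), held only without B6 replicate 1 or WSB replicate 1 (up to 0.135).

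Gm15494 was the one member called in the direction opposite to a called partner. It is head to head with Eps8l1, a gene related to the actin regulator Eps8. The antisense RNA was at 0.30, 0.09 and 0.25 FPKM in B6 (1 to 3 reads per mouse), 1.55, 1.02 and 0.93 in C3H and 1.73, 1.46 and 1.97 in WSB. Eps8l1 was at 1.92, 0.62 and 1.34 FPKM in B6, 0.14, 0.17 and 0.13 in C3H and 0.27, 0.23 and 0.21 in WSB. For both genes the B6 mice did not overlap the others, in opposite directions. For WSB minus B6 the log2 fold change was 2.59 (SE 0.32, limma adjusted p = 0.00434) for Gm15494 and −1.93 (SE 0.39, adjusted p = 0.0308) for Eps8l1, and the log2 ratio differed by 4.52 (SE 0.32, adjusted p = 3.7e-05). The call of Eps8l1 held only in the fit without B6 replicate 2, its lowest B6 mouse, among the 6 with a mouse left out, where adjusted p reached 0.112. For C3H minus B6 the log2 fold changes were 2.05 (adjusted p = 0.0201) and −2.37 (adjusted p = 0.0162), and leaving out B6 replicate 3, C3H replicate 1 or C3H replicate 3 ended either call, as did B6 replicate 1 for Eps8l1, with adjusted p up to 0.0943.

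**Figure D3:**
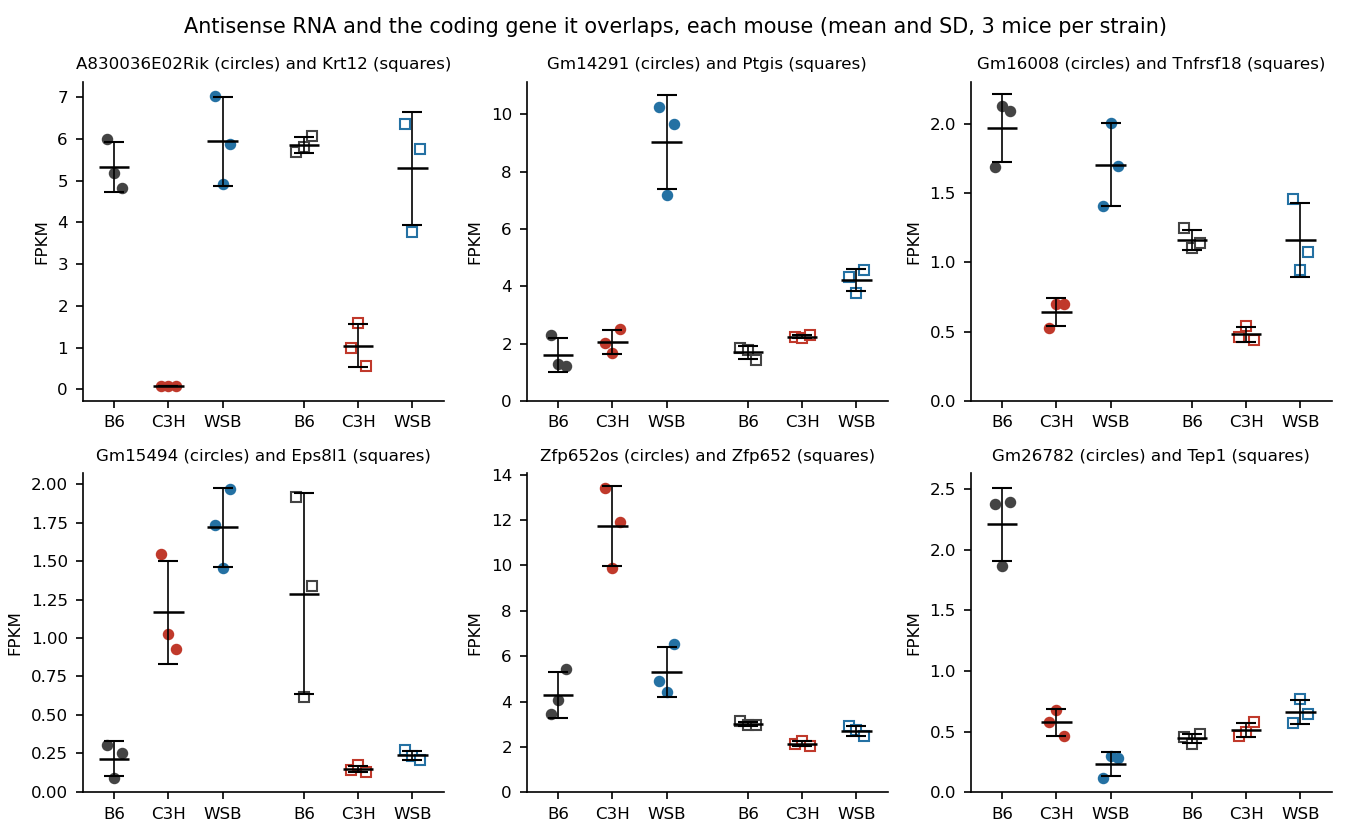
Each panel shows the FPKM of an antisense RNA (circles) and of the coding gene it overlaps (squares) in every mouse, with the mean and the SD of 3 mice. In the top row both genes moved the same way, as at A830036E02Rik and Krt12, whose C3H means were 0.078 and 1.04 FPKM. In the bottom row the genes moved apart or the coding gene was not called.

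The remaining called members were each called in 1 comparison. Gm13629 starts 40 bases from Scn1a, a voltage-gated sodium channel gene of interneurons, and runs tail to tail into Scn9a, another sodium channel gene. It was at 2.09, 1.64 and 2.17 FPKM in B6, 1.97, 4.32 and 3.91 in C3H and 4.5, 5.23 and 5.01 in WSB, so WSB was above both others and C3H overlapped B6. This gave a log2 fold change of 1.29 (SE 0.14, limma adjusted p = 0.00204) for WSB minus B6 and held without each mouse. Scn9a was at 0.18 ± 0.03, 0.31 ± 0.04 and 0.52 ± 0.02 FPKM in B6, C3H and WSB, a log2 fold change of 1.13 (SE 0.26, adjusted p = 0.0533) for WSB minus B6, and Scn1a at 9.58 ± 0.92, 7.49 ± 1.96 and 9.57 ± 1.15. The pair with Scn9a had a correlation of 0.90 over the 9 libraries.

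5033417F24Rik starts 19 bases from Rnpepl1 and meets Dusp28, a phosphatase gene, at its far end. It was at 1.65 ± 0.13, 2.21 ± 0.40 and 3.39 ± 0.58 FPKM in B6, C3H and WSB (log2 fold change 0.98 for WSB minus B6, limma adjusted p = 0.0117). Dusp28 was called too, at 0.47 (adjusted p = 0.0493), and lost that call without any mouse but B6 replicate 3, with adjusted p up to 0.157. Gm41361, head to head with the growth factor gene Pdgfb, was at 1.63 ± 0.52, 3.33 ± 0.90 and 4.16 ± 0.89 FPKM, with a log2 fold change of 1.33 (adjusted p = 0.0265) for WSB minus B6 that held only without B6 replicate 1 or 3 (up to 0.0849). Pdgfb was at 9.02 ± 0.45, 6.38 ± 0.63 and 6.75 ± 0.74 FPKM, called for C3H minus B6 at −0.50 (adjusted p = 0.0367) only, a call that held without C3H replicate 2 alone (up to 0.126). The log2 ratio of this pair differed by 1.75 (SE 0.30, adjusted p = 0.00829) for WSB minus B6 and 1.5 (SE 0.28, adjusted p = 0.0239) for C3H minus B6. Gm11192, at 151 bases the shortest member, had 1 read over the B6 mice and 20 over the WSB mice, a depth-adjusted ratio of 22.8 with a counting interval of 3.64 to 943, and its call was lost without B6 replicate 1 or 3 or WSB replicate 1 or 3 (adjusted p up to 0.0663). BC051226, near Daxx, and Gm26833, near Tmem178b, had log2 fold changes of −0.64 and −0.50 for WSB minus B6, and neither call survived leaving out any 1 mouse, with adjusted p of at least 0.0598.

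Between C3H and B6, Gm35161, head to head with the adenylyl cyclase gene Adcy2, was at 6.95, 3.08 and 3.82 FPKM in B6 and 1.28, 0.94 and 1.27 in C3H. The groups did not overlap, with a log2 fold change of −1.83 (SE 0.29, limma adjusted p = 0.014) that was lost without C3H replicate 1 (adjusted p = 0.0559). A730060N03Rik lies at the start of Cacng2, which encodes the auxiliary AMPA receptor subunit stargazin. It was at 1.35 ± 0.22 FPKM in B6 and 2.77 ± 0.41 in C3H, a log2 fold change of 0.98 (limma adjusted p = 0.0225). The call was lost without B6 replicate 2 or 3 or C3H replicate 1 or 3, with adjusted p up to 0.0998. Cacng2 was at 17.6 ± 0.82 and 17.7 ± 1.54 FPKM. Zfp335os, in the sequence with the most CG of those printed above, was at 1.77 ± 0.23 FPKM in B6 and 3.21 ± 0.20 in C3H (log2 fold change 0.83, adjusted p = 0.0155), a call lost without B6 replicate 2, C3H replicate 1 or C3H replicate 3, with adjusted p up to 0.0724, and not held once the GC trend was removed.

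Between WSB and C3H, Gm10516, head to head with the co-repressor gene Rcor3, was at 1.5, 1.79 and 1.40 FPKM in B6, 0.93, 1.0 and 0.83 in C3H and 2.35, 2.07 and 2.06 in WSB. No 2 strains overlapped, with B6 in between. The log2 fold change was 1.15 (SE 0.15, limma adjusted p = 0.00594) and held without each mouse. Gm17023, tail to tail with Pcid2, was at 3.15 ± 0.96 FPKM in C3H and 0.76 ± 0.22 in WSB (log2 fold change −1.90, adjusted p = 0.0115), and was lost without C3H replicate 1 or 3, with adjusted p up to 0.0656. Gm45441 starts 49 bases from Grwd1 and runs into Grin2d, an NMDA receptor subunit gene. It was at 0.88, 1.10 and 0.42 FPKM in C3H and 2.18, 2.10 and 2.93 in WSB. This log2 fold change of 1.54 (SE 0.32, adjusted p = 0.0352) held only without C3H replicate 2 or C3H replicate 3 among the 6 fits with a mouse left out, and up to 0.112 in the others.

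The other 6 called members lie in or at genes with varied roles. The first, 4930579G18Rik, inside Acin1, which encodes a chromatin protein of apoptosis, was at 4.45 ± 1.19 FPKM in B6 and 1.71 ± 0.14 in C3H (log2 fold change C3H minus B6 −1.30, limma adjusted p = 0.0137), a call lost without B6 replicate 1, C3H replicate 1 or C3H replicate 3 (up to 0.068). Between WSB and C3H, Gm33524, inside Pebp4, was at 0.49 ± 0.21 FPKM in C3H and 1.97 ± 0.42 in WSB (1.86, adjusted p = 0.0196), lost without C3H replicate 1 or WSB replicate 1 or 3 (up to 0.0808). Gm49163, inside Flywch1, was at 2.08 ± 0.16 and 3.49 ± 0.29 FPKM (0.72, adjusted p = 0.0176), kept only without C3H replicate 2 or WSB replicate 3 (up to 0.0771). Gm37850, inside the splicing factor gene Rbm5, Gm48796, inside the junction protein gene Jam3, and A330009N23Rik, head to head with Grasp, had log2 fold changes of 1.75, 1.15 and −0.52 (adjusted p = 0.0476, 0.0343 and 0.0381). Each of these 3 kept its call only in the fit without C3H replicate 2 among the 6 with a mouse left out, with adjusted p up to 0.167, 0.111 and 0.139.

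Several antisense RNAs of neuronal genes did not differ by this test. Grin1os, inside Grin1, the obligatory NMDA receptor subunit gene, was at 3.57 ± 0.32, 3.60 ± 0.26 and 4.13 ± 0.48 FPKM in B6, C3H and WSB. Prox1os, head to head with the homeobox gene Prox1, was at 1.64 ± 0.31, 1.89 ± 0.58 and 1.99 ± 1.06. Kcnd3os, head to head with the potassium channel gene Kcnd3, was at 1.01 ± 0.37, 1.32 ± 0.32 and 0.95 ± 0.40. The mice of the 3 strains overlapped in all 3 RNAs. Of the 21 members that carry a gene-like symbol rather than a Gm number, a Rik name or a clone name, 4 were called in any comparison. These were Zfp652os, Dlx6os1, Zfp335os and Dlx1as. Of all members 20.5% were so called, and of all genes tested in all 3 comparisons 10.5%.

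The coding partners are set beside protein-coding genes that averaged 1 FPKM or more, of which 5.6%, 4.44% and 5.57% were called in the 3 comparisons. The partners were tested from 0.1 FPKM up, so the sets differ in level, and the shares were not tested against each other. Of 171 partners tested, 7 were called between WSB and B6 (2 higher, 5 lower), 6 between C3H and B6 (1 higher, 5 lower) and 8 between WSB and C3H (4 higher, 4 lower), or 4.09%, 3.51% and 4.68%. Of 19 called members with a tested partner between WSB and B6, 3 had a called partner, 2 of them in the same direction. Between C3H and B6 these counts were 16, 3 and 2, and between WSB and C3H 21, 4 and 4. They were not tested against the shares over all partners. Some partners changed under an antisense RNA that was not called. Aldh1a1, a retinal dehydrogenase gene, was at 11.8 ± 0.45, 13.4 ± 1.34 and 4.18 ± 0.29 FPKM in B6, C3H and WSB (log2 fold change −1.47, limma adjusted p = 9.21e-05 for WSB minus B6). The RNA on its other strand, C730002L08Rik, was at 2.25 ± 1.06, 1.56 ± 0.26 and 2.21 ± 0.84. Oser1 fell in WSB by 0.71 on the log2 scale (adjusted p = 0.00639), and 2900093K20Rik, inside it, was at 2.74 ± 0.51 FPKM in B6 and 2.39 ± 0.93 in WSB. With the GC trend removed, the called partners were 9 lower and 0 higher between C3H and B6, and 5 higher and 3 lower between WSB and C3H.

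The ratio of an antisense RNA to its partner within each mouse was tested over every antisense and coding pair of the table that passed the filter on low values. Among the 174 members with a tested ratio, 13 differed between WSB and B6 (7 higher, 6 lower), where 3.89% of 925 ratios were called. Between C3H and B6 14 differed (5 higher, 9 lower), with a background of 3.83% of 887, and between WSB and C3H 10 (6 higher, 4 lower), with a background of 2.80% of 893. As shares of the members with a tested ratio these were 7.47%, 8.05% and 5.75%. The background reaches down to antisense genes at 0.1 FPKM, whereas the members average at least 1 FPKM. The called members included 12, 12 and 9 of the members with a called ratio, out of 19, 16 and 21 called members with a tested ratio. The others with a called ratio were Gm20692, inside Hdhd5, between WSB and B6, Gm41361 and Gm45441 between C3H and B6, and C730002L08Rik between WSB and C3H, which were named after their values were seen.

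Counts of partners and ratios also rested on single mice. For partners, 3 to 6 were called between WSB and B6 with a mouse left out, 4 without B6 replicate 1, B6 replicate 2 or WSB replicate 1 and 3 without WSB replicate 2 or 3. Between C3H and B6 the count was 17 without C3H replicate 2 and 2 or 3 without any other mouse, and between WSB and C3H it was 17 without C3H replicate 2, 4 without C3H replicate 1 or WSB replicate 1, and 5 without C3H replicate 3 or WSB replicate 2. For ratios, the count between C3H and B6 was 6 without B6 replicate 2 or C3H replicate 1, 7 without B6 replicate 1 or 3 and 8 without C3H replicate 3. Between WSB and C3H it was 2 without WSB replicate 1, 3 without C3H replicate 1, 5 without C3H replicate 2 and 6 without WSB replicate 3.

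**Figure D4:**
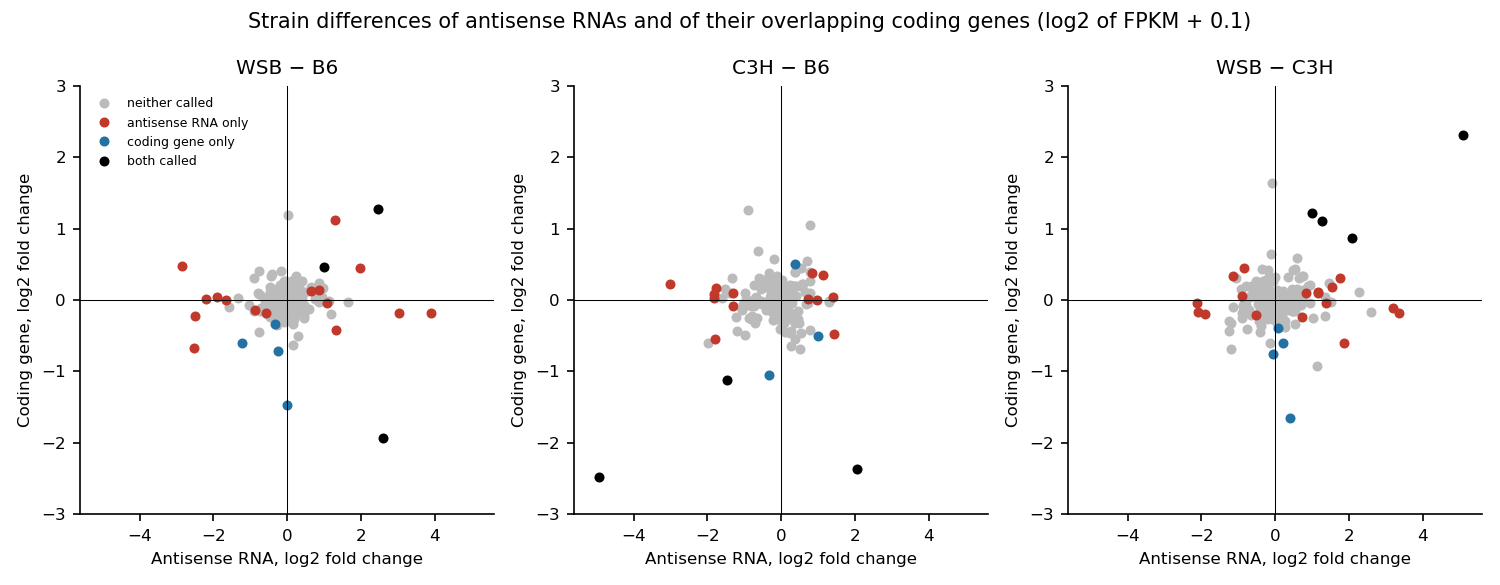
Points are pairs of an antisense RNA and its overlapping coding gene, with the log2 fold change of the antisense RNA on the x axis and of the coding gene on the y axis, for each pair of strains. Most called antisense RNAs (red) lie near 0 on the y axis, and the pair called in both genes and opposite directions is Gm15494 and Eps8l1, at 2.59 and −1.93 for WSB minus B6.

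In all, 40 of 195 members (20.5%) were called in at least 1 comparison, where 10.5% of the 19293 genes tested in all 3 were. By arrangement, 13 of 68 members inside a coding gene, 13 of 58 head to head, 9 of 47 tail to tail, 2 of 4 spanning and 3 of 18 with no overlap were so called, and these shares were not tested against each other. The median correlation with the partner was 0.09, 0.17, 0.14 and 0.24 for the first 4 arrangements. Of the members that start within 1000 bases of a coding start on the other strand, 13 of 81 were called. Of the 40 called in at least 1 comparison, 12 would be under 1 FPKM without 1 strain. They entered through the strain where they were high. The background of 10.5% reaches down to genes at 0.1 FPKM, whereas the members average at least 1 FPKM.

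Genes known from antisense biology were read from 3 lists. Among genes of imprinted clusters that hold an antisense RNA, 31 were tested and the median log2 fold changes were 0.04, 0.05 and 0.10 for WSB minus B6, C3H minus B6 and WSB minus C3H. Ndn, a growth-regulating gene of the Prader-Willi region, rose from 45.5 ± 4.87 FPKM in B6 to 88.8 ± 1.98 in C3H and 98.1 ± 26.7 in WSB (log2 fold changes 0.97, limma adjusted p = 0.00116, and 1.08, adjusted p = 0.0151). Mest was lower in WSB than in B6 by −0.41 (adjusted p = 0.0403). Between WSB and C3H, 3 were higher, namely the noncoding RNAs Meg3 and Rian, at 0.62 and 0.56, and Zim1, at 1.37, and Slc22a2 was lower, at −1.32 (limma adjusted p = 0.0334, 0.0201, 0.0408 and 0.0457).

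Among developmental transcription factors next to studied antisense RNAs, 14 were tested, with medians of 0.03, −0.12 and 0.12, and Dlx1 between WSB and C3H was the single call. Among factors of nuclear RNA decay, 18 were tested, with medians of 0.02, −0.06 and 0.02. Exosc9, a subunit of the RNA exosome, was at 3.97 ± 0.21 FPKM in B6, 2.31 ± 0.25 in C3H and 2.59 ± 0.34 in WSB, and was called in both comparisons with B6, with log2 fold changes of −0.76 (limma adjusted p = 0.0133) for C3H and −0.60 (adjusted p = 0.0356) for WSB. Zfc3h1, which links polyadenylated nuclear RNA to the exosome, was at 2.76 ± 0.71 FPKM in C3H and 5.20 ± 0.27 in WSB (0.92, adjusted p = 0.0293). The other 16 tested genes of that list were not called in any comparison.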

How the data were processed

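RNA from the cortex of 9 mice had been sequenced in pairs on an Illumina instrument. According to the methods and the submitters' processing notes, the authors trimmed reads with Cutadapt, aligned them with STAR, counted them on genes with HTSeq and tested them with DESeq2, and they deposited FPKM values per gene and mouse. Versions, the build used for alignment and strandedness are not given in the sources used here. Coordinates in the table are GRCm38, and 192 of 195 members have the same coordinates in GENCODE M21, which gave exons. No column of values was left unused. Each mouse's strain came from the labels, and each is a separate animal.

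FPKM times gene length came in whole steps per library, within a tolerance of 0.01, and the reads so recovered gave the depth of 16317439 to 21562429 per library, read ratios and voom weights. Strains were compared 2 at a time with R 4.3.3 and limma 3.58.1, two-sided, after log2(FPKM + 0.1), letting eBayes follow the mean-variance trend. Genes had to average 0.1 FPKM or more across those 6 mice, with Benjamini-Hochberg adjustment over all genes tested and a threshold of 0.05. Antisense to partner log2 ratios were tested in the same way over all pairs. Intervals of read ratios are exact, at 95%, and cover counting error only. Within strains, chi-square per gene between libraries ran from 7.87 to 24.12, so no 2 libraries were alike within sampling noise.

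The scripts were tested on simulated data before use.

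The members, the lists and the comparisons were chosen with earlier results of these data known. Named members were the 10 highest by mean, the 10 largest called changes per comparison, those called more than once, those with a gene-like symbol, the 5 largest called ratio differences per comparison, those called against a called partner, the 3 best correlated with a partner, those 3 on each side of the threshold, and called genes of the lists, with partners. Dlx5, Scn1a, Grpel2 and the members called in 1 comparison with smaller changes were added after their values were seen. Alternatives were a pseudocount of 0.01 or 1, a low-value filter at 1 FPKM or none, rescaling by median of ratios or total reads, fitting 3 strains together, dropping the variance trend, voom, blocking on replicate number, removal of GC trends (spline with 5 degrees of freedom), pairs with overlapping exons, and leaving out each mouse. Figures used matplotlib 3.10.9.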

Additional observations from a re-analysis of the deposited data

Results flagged for a closer look

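At 3 called members every WSB mouse lay on one side of every B6 mouse and every C3H mouse on the other side. Over all genes tested, 26.0% did not overlap between WSB and B6 and 28.9% between C3H and B6. The share of all genes with both, in opposite directions, was not counted. The log2 difference between WSB and C3H was 3.19 at 1500015A07Rik (limma, Benjamini-Hochberg adjusted p = 2.23e-06), where the change from B6 was 3.02 in WSB and −0.17 in C3H. At Dlx6os1 the difference was 1.38 (adjusted p = 0.00149), with changes of 0.86 and −0.53. At Gm10516 it was 1.15 (adjusted p = 0.00594), with changes of 0.45 and −0.70. The changes of C3H from B6 did not pass the test at any of the 3, nor did that of WSB at Gm10516. The tests compare WSB with C3H directly.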

How the results depend on the processing

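Called members numbered 13 to 20 between WSB and B6, 9 to 33 between C3H and B6 and 6 to 30 between WSB and C3H with a mouse left out. Called partners numbered 3 to 6, 2 to 17 and 4 to 17, and called ratios 11 to 16, 6 to 10 and 2 to 10. Without a trend in the variance, 14 members and 4 partners were called between WSB and B6, and 5 ratios between C3H and B6 and 6 between WSB and C3H. Voom weights on reads gave 11, 11 and 13 called partners in the 3 comparisons. Partners whose exons overlap the member numbered 4 between WSB and B6 and 4 between WSB and C3H, of 120 tested in place of 171. Removing GC trends gave 11 partners between WSB and B6. A filter of 1 FPKM gave 7 ratios between WSB and B6, and a pseudocount of 0.01 gave 8 between C3H and B6. Over all genes that averaged 0.1 FPKM or more, mice with the same replicate number did not deviate together (correlations of −0.0649 to 0.053). The labels do not say what the numbers stand for, and an effect shared by such mice on some genes was not tested. With the number as a replicate block, 12 members were called between WSB and C3H, 4, 3 and 5 partners in the 3 comparisons and 6 ratios between C3H and B6. The causes were not tested. No named member or partner that was called changed sign under these settings, though the balance of higher and lower calls turned without WSB replicate 3 (7 and 8 in both comparisons with WSB) and without WSB replicate 2 (8 and 9 against B6). Of the called members, 11 of 23, 8 of 17 and 6 of 22 passed without each mouse in turn. With GC trends removed, 21, 16 and 21 kept their calls. Lost were Gm13375 and Gm30025 between WSB and B6, Zfp335os between C3H and B6, and A330009N23Rik between WSB and C3H. Voom weights ended the calls of BC051226, Gm26833 and Gm26982 between WSB and B6, and of A330009N23Rik, Gm37850 and Gm49163 between WSB and C3H. The members had a median of 39 reads per library, which limits their precision.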
